A study of Saccharomyces cerevisiae with 3 samples.

Results

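The genes described here are those of the CUP1 repeat of Saccharomyces cerevisiae and of copper homeostasis. They were chosen by name: the metallothionein genes CUP1-1 and CUP1-2, RSC30 and YHR054C beside them in the repeat, the metallothionein gene CRS5, the copper regulators CUP2 and MAC1, and the copper transporter genes CTR1, CTR2 and CTR3. All 10 were on the array, with 2 spots each, among 5539 genes with a name. The study compared a strain labelled YAP1 mutant, a yap1 deletion per the series title, with the wild type, both exposed to arsenite, the trivalent form of arsenic, at 1 mM for 1 h. Each of 3 two-colour arrays set mutant RNA, labelled with Cy5, directly against wild-type RNA, labelled with Cy3. Both groups were under arsenite, so the ratios do not show what arsenite itself did. No source used here gives the strain background, the marker used for the deletion or the number of CUP1 repeat copies in either strain.

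YAP1 encodes a transcription factor that activates genes of the oxidative stress response. Copper is needed by a few enzymes and is toxic when free. CUP2, also known as ACE1, is activated by copper and switches on the metallothionein genes CUP1 and CRS5, whose small cysteine-rich proteins bind the metal. MAC1 acts in the opposite situation and, when copper is scarce, switches on the plasma membrane copper transporter genes CTR1 and CTR3 and the metal reductase genes FRE1 and FRE7. CUP1 lies in a tandem repeat on chromosome VIII whose number of copies differs between yeast strains.

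Values are log2 ratios in the likely direction of mutant over wild type, after a curve of the ratio on the spot's signal had been subtracted within each array by loess. The direction is called likely because the value table does not state it; it rests on which strain the titles name first, on the dyes and on YAP1 itself, which was lower. The dye orientation was the same on all 3 arrays, so dye and genotype cannot be told apart. YAP1 had ratios of -0.33, -1.22 and -1.06 on replicates 1, 2 and 3, averaging -0.87 ± 0.18 (SE, n = 3; limma, adjusted p = 0.0405). YAP1 stayed negative under each processing tried but did not pass without replicate 2 (-0.70; adjusted p = 0.0779 by limma), with quantile normalization (-0.91; 0.0578), limma-trend (0.170), the unmoderated statistic (0.548), its first spot alone (-0.68; 0.174) or at an adjusted p under 0.01. Nothing in the labels ties the replicates to separate cultures, and the p-values then cover no more than array-to-array spread, possibly technical. Ratios were more scattered on replicate 1, where their standard deviation over all genes was 0.556, than on replicate 2 (0.308) and replicate 3 (0.364).

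After loess 3 of the 10 genes rose and 0 fell. The 3 were CUP1-1, CUP1-2 and RSC30, all inside the repeat, although both CUP1 ratios turned negative on the deposited scale. A gene was called at a limma adjusted p under 0.05 over all 5539 genes, and 0.433% of all genes were called higher, 2.4% lower and 2.83% in either direction, against 3 higher and 0 lower of the 10 genes here. The 10 genes were chosen with earlier results of these data known, so these counts only describe them and test no enrichment. The count of 3 became 2 with medians of assumed print blocks subtracted. It became 1 without replicate 3, with median centring or with normexp background correction. It was 0 with limma-trend and robust moderation, with the unmoderated statistic, at an adjusted p under 0.01 or on the deposited scale. CUP1-1 and CUP1-2 are identical genes whose spots cannot separate one from the other, so they are not independent measurements. The other gene of the repeat, YHR054C, lay below 0 on all 3 arrays without passing. CRS5, both regulators and all 3 transporters did not pass. The median of the 10 genes was 0.09, against -0.01 over all genes.

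**Figure D1:**
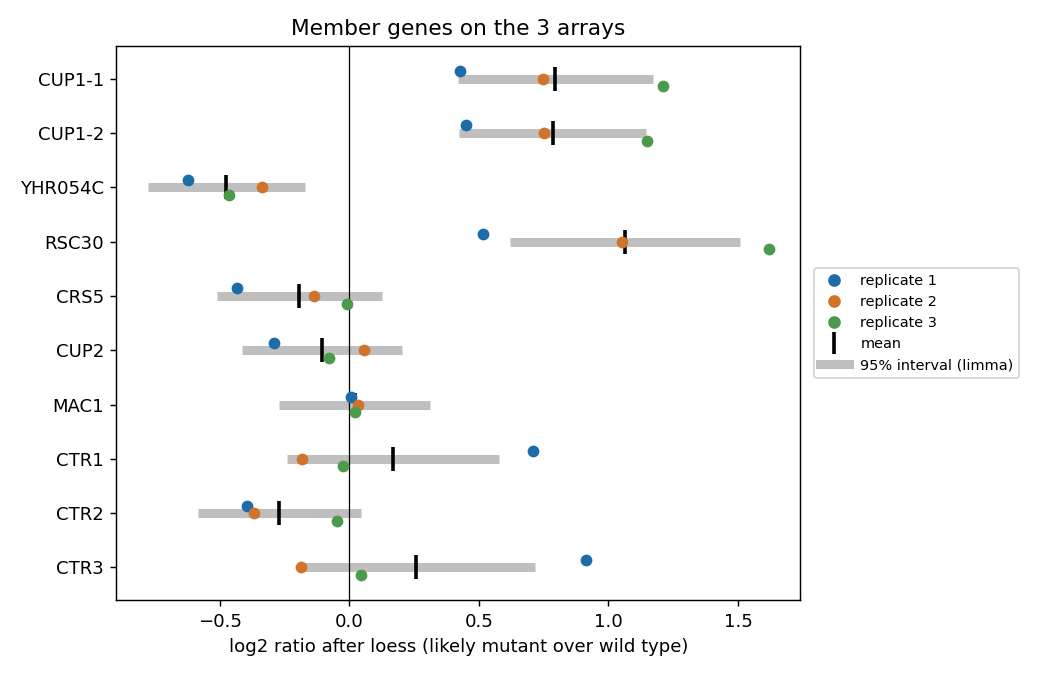
Log2 ratio after loess (x axis, likely mutant over wild type) of the 10 genes, with 1 point per array, the mean as a black tick and limma's 95% interval as a grey bar. CUP1-1, CUP1-2 and RSC30 lie above 0 on all 3 arrays (both CUP1 genes turn negative on the deposited scale), and CTR1 and CTR3 lie clearly above 0 on replicate 1 alone.

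CUP1-1 encodes the copper-binding metallothionein. Its ratios were 0.43 on replicate 1, 0.75 on replicate 2 and 1.21 on replicate 3, so all 3 lay above 0. They averaged 0.80 ± 0.17 (SE, n = 3; limma, adjusted p = 0.0405), a 1.74-fold higher level with a 95% interval of 0.42 to 1.17 on the log2 scale. CUP1-2 had 0.45, 0.75 and 1.15 and averaged 0.78 ± 0.16 (limma, adjusted p = 0.0368). The 4 CUP1 spots were close to each other within each array, from 0.43 to 0.47 on replicate 1, from 0.74 to 0.76 on replicate 2 and from 1.12 to 1.22 on replicate 3. The spread between arrays was thus much larger than the spread between spots. The mean difference of CUP1-1 from CUP1-2 was 0.01 ± 0.04 (SD, n = 3).

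The CUP1 spots were among the brightest of the array. Between 17 and 38 of the 5539 genes were brighter than CUP1-1 on an array, and between 35 and 59 were brighter than CUP1-2. On the deposited scale CUP1-1 had -0.50, -0.53 and -0.39, with a mean of -0.47 ± 0.07 (SD, n = 3), and CUP1-2 had -0.52, -0.52 and -0.40. These values were nearly the same on the 3 arrays. The curve that loess subtracted at CUP1-1 was -0.93, -1.27 and -1.60 on replicates 1, 2 and 3, so the order of the arrays in the normalized ratio was the order of the curve. The deposited scale is not centred: the median spot had -0.52, -0.85 and -0.55, and the brightest 10% of spots had medians of -1.11, -1.19 and -1.32. CUP1 therefore stood near or above the median of all spots and above the median of the bright ones. With median centring in place of loess the mean of CUP1-1 was 0.17 (limma, adjusted p = 0.488) and that of CUP1-2 was 0.16 (adjusted p = 0.517), and neither passed.

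**Figure D2:**
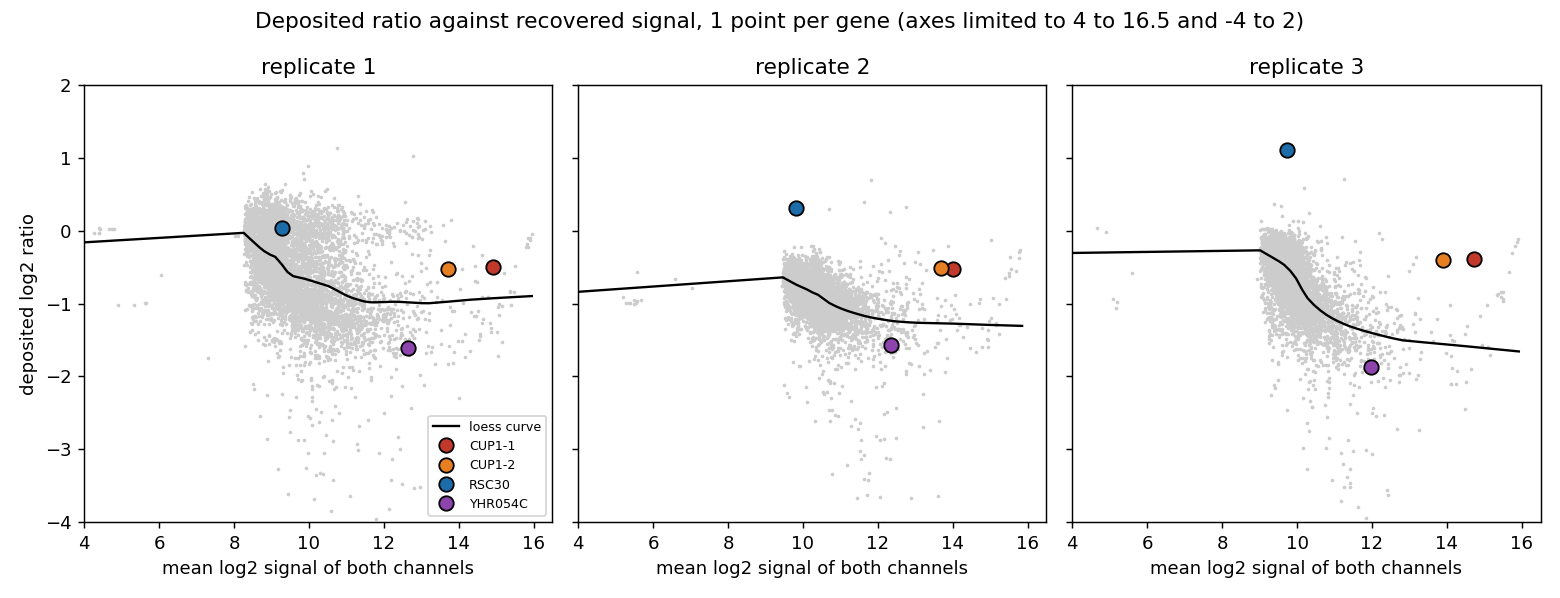
Deposited log2 ratio (y axis) against the mean log2 signal of both channels (x axis), 1 panel per array and 1 grey point per gene, with the loess curve as a black line. Both CUP1 genes lie at the bright end, above the curve. RSC30 lies among the dimmer genes, above the curve, and YHR054C among the bright genes, below the curve.

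RSC30 encodes a DNA-binding subunit of RSC, a complex that remodels chromatin, and stands at the end of the repeat. Its ratios were 0.52, 1.05 and 1.62 on replicates 1, 2 and 3, again all above 0. The mean was 1.06 ± 0.20 (SE, n = 3; limma, adjusted p = 0.0246), a 2.09-fold higher level with a 95% interval of 0.62 to 1.51 on the log2 scale. RSC30 differed from CUP1 in that its deposited ratios were themselves positive, at 0.04, 0.31 and 1.11. Median centring gave 1.13 (limma, adjusted p = 6.82e-10), but limma then gave all genes described here the same SE of 0.167. That p-value does not reflect the spread of RSC30 itself over the arrays. Its wild-type signal, however, was low, below that of the median spot on each array, while its mutant signal lay above. Signals were recovered from the ratios up to a factor that can be wrong for single spots. The recovered mutant signal was 636.5, 1007 and 1257.5, whereas that of the median spot was 584, 900 and 707. The recovered wild-type signal was 618.5, 809.5 and 581.5 against medians of 862, 1637 and 1028. On replicates 2 and 3 the wild-type signal lay below the 5th percentile of its channel (991 and 657.75), and on replicate 1 above it (355). It stood at percentiles 0.17 and 1.19 of all spots on replicates 2 and 3, at the bottom of the channel. The mutant signal stood at percentiles 56.0, 62.9 and 91.8 on replicates 1, 2 and 3. With a background correction by normexp before loess the mean ratio became 2.39. With medians of assumed print blocks subtracted, the mean was 1.08 and RSC30 no longer passed (limma, adjusted p = 0.115).

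YHR054C, a shorter reading frame of the repeat related to RSC30, had ratios of -0.62, -0.34 and -0.47 on replicates 1, 2 and 3. All 3 were negative, averaging -0.48 ± 0.13 (SE, n = 3), and the gene was not called (limma, adjusted p = 0.115). With median centring it was lower at -1.04 (limma, adjusted p = 1.81e-08). That p-value too rests on the common SE of 0.167 and not on the spread of YHR054C itself. YHR054C and RSC30 did not overlap on any array: RSC30 was higher by 1.14, 1.39 and 2.09. An exact sign-flip test of this difference gave a two-sided p = 0.25, the smallest that 3 arrays allow, and p = 0.5 after Benjamini-Hochberg adjustment over the 4 pairs of genes compared. The YHR054C spots were bright, with a mean log2 signal of both channels of 12.3, and those of RSC30 dimmer, with 9.6. Spot brightness is not a transcript level. The part of each gene that the probes cover was not used here, so which transcripts each spot reads is not known. The RefSeq gene table lists RUF5-1 and RUF5-2, noncoding RNA genes on the opposite strand, and the reading frames YHR052C-B and YHR054C-B as overlapping CUP1-1 and CUP1-2. RNA of these genes cannot be told apart from CUP1 RNA here.

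The measured genes next to the repeat were set beside it. On the left side these were FSH1, SMF2, COX6 and CIC1, and on the right side CPR2, MED6, FYV4 and VMA22. None of the 8 was called by limma, and their median was 0.03. An unadjusted p under 0.05 was found for 2 of the 8, and for 1030 of all 5539 genes (18.6%). The 2 of smallest p were VMA22, a gene of vacuolar ATPase assembly (0.49 ± 0.15; limma, adjusted p = 0.139), and FSH1, a serine hydrolase gene (0.35 ± 0.14; adjusted p = 0.208). The genes directly flanking the repeat were CIC1, a ribosome biogenesis gene, with 0.06, 0.37 and 0.02, and CPR2, a cyclophilin gene, with -0.59, -0.00 and -0.09. Neither had ratios as high as CUP1 or RSC30 on any array. On replicate 1 the 8 flanking genes ranged from -0.63 to 0.72, a range that includes the values of CUP1 and RSC30. On replicate 2 they reached 0.57 and on replicate 3 they reached 0.19, below both.

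**Figure D3:**
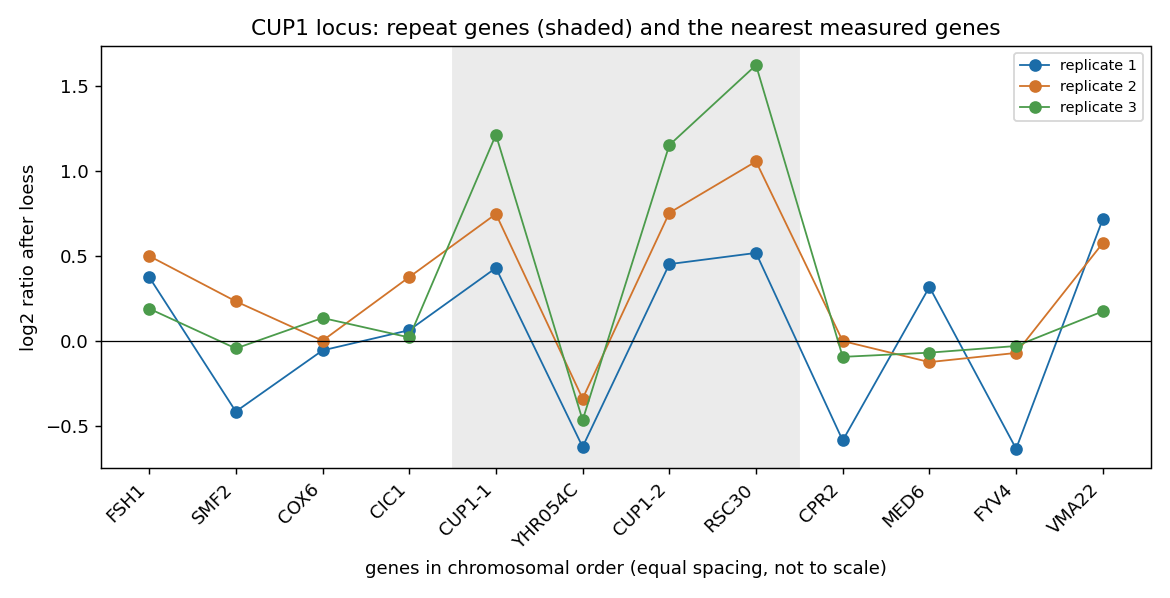
Log2 ratio after loess (y axis) of the 4 repeat genes, shaded, and the 8 nearest measured genes in chromosomal order with equal spacing (x axis), 1 line per array. CUP1-1, CUP1-2 and RSC30 stand above 0 and YHR054C below 0 on each array, although both CUP1 genes turn negative on the deposited scale.

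CRS5 encodes the other metallothionein and is also a target of CUP2. It had -0.43, -0.14 and -0.01 on replicates 1, 2 and 3, close to 0 on replicate 3 and lowest on replicate 1. The mean was -0.19 ± 0.14 and did not pass (SE, n = 3; limma, adjusted p = 0.496). After loess CUP1-1 exceeded CRS5 by 0.86, 0.88 and 1.22 on the 3 arrays, with a mean difference of 0.99 ± 0.20 (SD, n = 3). The subtracted curve was -0.93, -1.27 and -1.60 at CUP1-1, but -0.28, -0.92 and -0.61 at CRS5. The means lay closer together on the deposited scale, at -0.47 for CUP1-1 and -0.80 for CRS5. With median centring they were 0.17 and -0.16, so the size of the difference depended on the curve. An exact sign-flip test of the difference after loess gave a two-sided p = 0.25, and 0.5 adjusted over 4 pairs. Any 3 differences of the same sign give this value, so the test cannot decide whether the genes differ. SOD1, the copper and zinc superoxide dismutase gene, is a further CUP2 target and is described with the other copper genes.

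Neither regulator gene passed. CUP2 had -0.29, 0.06 and -0.08 on the 3 arrays, on both sides of 0, and a mean of -0.10 ± 0.14 (SE, n = 3; limma, adjusted p = 0.721). Its 95% interval ran from -0.41 to 0.20. MAC1 had the closest agreement between arrays of the 10 genes, with 0.01, 0.03 and 0.02, averaging 0.02 ± 0.13 (limma, adjusted p = 0.950), with an interval from -0.27 to 0.31. The limma error is larger than this spread because it borrows from all genes. The MAC1 spots were dim, with a mean log2 signal of 9.3, at percentile 4.41 of all genes. A ratio near 0 at this signal bounds the change in the measured signal, which may include background.

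CTR1 and CTR3 encode the high-affinity copper transporters of the plasma membrane. CTR1 had 0.71 on replicate 1, -0.18 on replicate 2 and -0.02 on replicate 3. CTR3 had 0.91, -0.19 and 0.05. Both were thus high on replicate 1 alone. Their means of 0.17 ± 0.18 (SE, n = 3; limma, adjusted p = 0.655) and 0.26 ± 0.20 (adjusted p = 0.524) did not pass, and without replicate 1 they were -0.10 and -0.069. On replicate 1, 687 of the 5539 genes had a ratio above 0.6, against 51 on replicate 2 and 94 on replicate 3. The difference between CTR1 and CTR3 averaged -0.09 ± 0.11 (SD, n = 3; exact sign-flip p = 0.5).

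CTR2 encodes the transporter that releases copper from the vacuole. It had -0.40, -0.37 and -0.05 on replicates 1, 2 and 3, below 0 on all arrays but near 0 on replicate 3. The mean was -0.27 ± 0.14 (SE, n = 3; limma, adjusted p = 0.332), with a 95% interval from -0.58 to 0.04.

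Of 33 other copper genes listed by role, 29 were measured, 2 fell and 0 rose by limma, against 2.4% of all genes lower and 0.433% higher. Of the 29, 5 (17.2%) had an unadjusted p under 0.05, no larger a share than the 18.6% of all genes, and the median of the 29 was 0.02. Of the 2 lower genes, SOD1 encodes the copper and zinc superoxide dismutase, and CCS1 the chaperone that loads it with copper. SOD1 had -2.52, -2.41 and -2.10 on replicates 1, 2 and 3, far below every gene of the repeat on every array. Its mean was -2.34 ± 0.14 (SE, n = 3; limma, adjusted p = 2.54e-05). CCS1 had -1.60, -0.93 and -1.63 and averaged -1.39 ± 0.17 (adjusted p = 0.00169). CUP1 and SOD1, both CUP2 targets, thus lay on opposite sides of 0 on all 3 arrays after loess, but on the same side on the deposited scale.

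**Figure D4:**
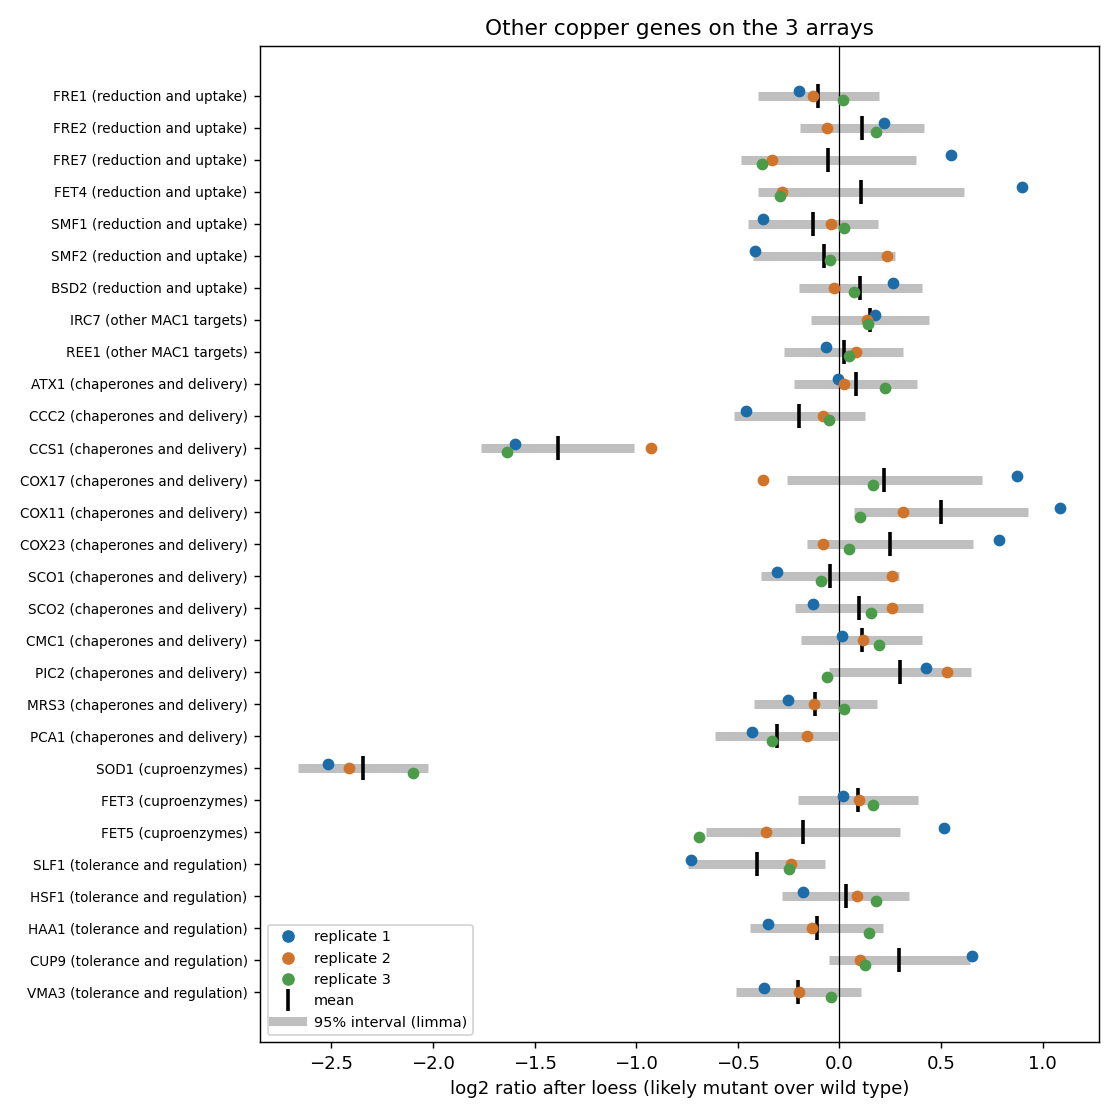
Log2 ratio after loess (x axis) of the 29 other measured copper genes by role, with 1 point per array, the mean as a black tick and limma's 95% interval as a grey bar. SOD1 and CCS1 lie below 0 on all 3 arrays, apart from the other genes.

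The other roles held no call. The 7 genes of metal reduction and uptake had means from -0.13 to 0.11. Among them the MAC1 target FRE1, a plasma membrane metal reductase gene, had -0.20, -0.13 and 0.02. FRE7, another MAC1 target, had 0.55, -0.33 and -0.38, and the low-affinity iron and copper transporter gene FET4 had 0.90, -0.28 and -0.29. Both resembled CTR1 and CTR3 in being high on replicate 1 alone. The other listed MAC1 targets, IRC7 and REE1, had means of 0.15 and 0.02.

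Of the 12 measured chaperone and delivery genes, 11 did not pass. ATX1, the chaperone that hands copper to the Golgi pump, had a mean of 0.08, and CCC2, which encodes that pump, had -0.20. COX11, needed to insert copper into cytochrome oxidase, had 1.09, 0.31 and 0.10, averaging 0.50 ± 0.19 without a call (limma, adjusted p = 0.204). The multicopper oxidase gene FET3 had 0.02, 0.09 and 0.17, with a mean of 0.09. HSF1, the heat shock factor gene, whose product can also activate CUP1, had a mean of 0.03, and HAA1, the paralog of CUP2, had -0.11. SLF1, a gene tied to copper tolerance, had -0.73, -0.24 and -0.25 and averaged -0.41 ± 0.15 without a call (limma, adjusted p = 0.195).

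Of 16 other genes of the RSC complex 15 were measured and none was called by limma. There 2 of 15 (13.3%) had an unadjusted p under 0.05, a smaller share than the 18.6% of all genes, and the median was -0.03. The 2 of smallest p were RSC58 (0.61 ± 0.19; limma, adjusted p = 0.144) and RSC9 (-0.40 ± 0.13; adjusted p = 0.161). RSC3, the paralog of RSC30, had -0.46, -0.03 and -0.42, below RSC30 on all 3 arrays. Its mean was -0.30 ± 0.14 and did not pass (adjusted p = 0.295).

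The genes most like CUP1-1 were taken as the 3 of smallest Euclidean distance over the 3 arrays' normalized ratios. They were DUG2, a glutathione degradation gene (0.44, 0.80 and 1.16, distance 0.0768), and the transposon reading frames YMR051C (distance 0.307) and YML045W (distance 0.398). The 3 most like RSC30 were the transposon reading frames YML040W (0.72, 1.06 and 1.53, distance 0.224), YML045W (0.261) and YMR051C (0.310). All of these had bright spots, with mean log2 signals from 13.1 to 15.7, near that of CUP1-1 (14.6) and far from that of RSC30 (9.6). The 3 most like CTR1 were DCN1, RAX2 and SPO73, with distances from 0.0125 to 0.0552, and each was high on replicate 1 alone. Only 3 values enter each distance, so a close match over 5539 genes is a description of these arrays.

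**Figure D5:**
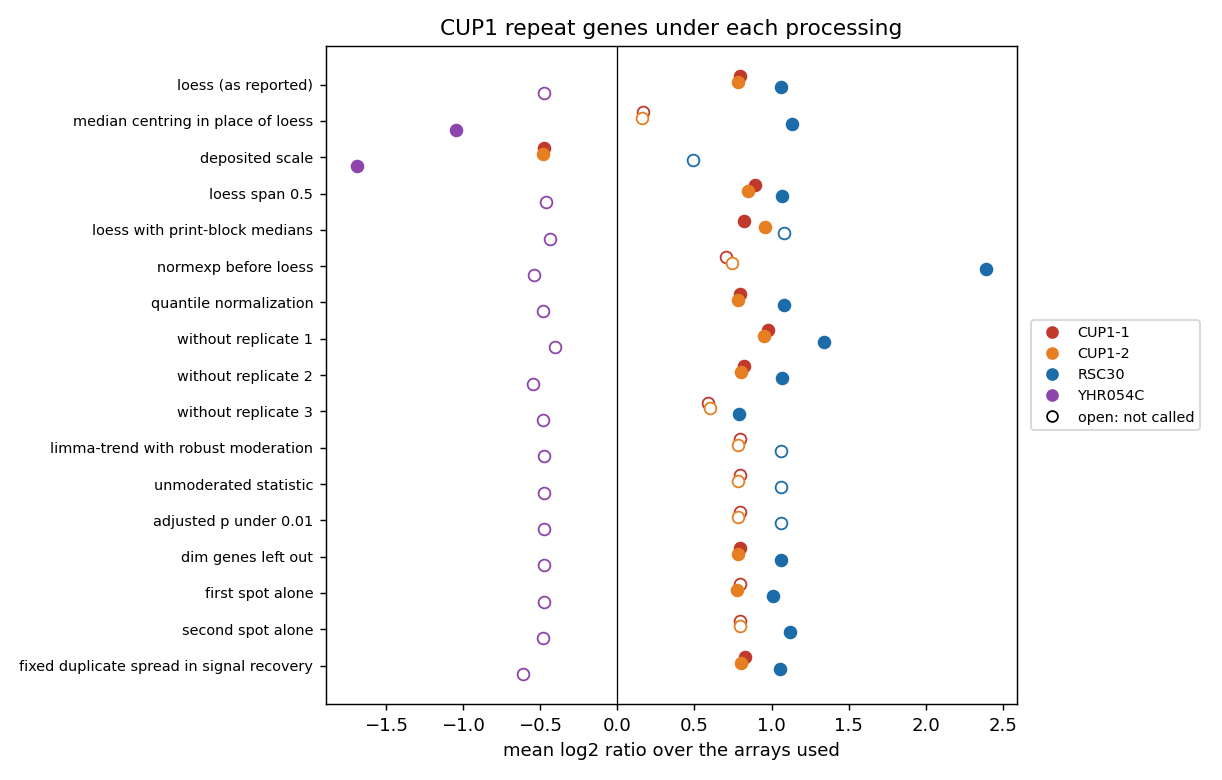
Mean log2 ratio (x axis) of the 4 repeat genes as reported and under each other processing (y axis), filled where the gene was called. RSC30 lies above 0 and YHR054C below 0 in every row, while CUP1-1 and CUP1-2 lie above 0 in every row except the deposited scale.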

How the data were processed

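Total RNA was measured on 3 two-colour arrays. The authors deposited 1 log2 ratio per spot for 13056 spots per array; no source used here gives the software, background handling or normalization. As powers of 2, 100% of the values equalled a quotient of integers (relative tolerance 1e-13), against at most 0.199% as powers of 10. Both channel signals were recovered from these ratios, up to a common factor set with the duplicate spot. The recovery was tested on simulated signals, where 81.2%, 86.9% and 87.8% of factors were exact for replicates 1, 2 and 3. Within 0.5 on the log2 scale were 88.9%, 92.8% and 94.4%, so the factor can be wrong for single spots. The duplicates' spread was estimated, a choice made after fixed values had left the YHR054C duplicates unlike.

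A loess curve (span 0.3, limma 3.58.1, R 4.3.3) was subtracted within each array, and spots of a gene were averaged. Gene names came from the platform annotation: 11138 spots had 1 gene, 1918 none and 0 several, and 5534 of 5539 genes were matched in a RefSeq table of the R64 assembly. Genes were tested with limma's moderated statistic, two-sided, with Benjamini-Hochberg adjustment over all genes. The fit was tested on simulated arrays, where it called 12% of 1.5-fold, 64% of 2-fold and 100% of 4-fold changes. The simulated noise was reshuffled among genes for each array and had the same distribution on all arrays, unlike the data. No fold between 2 and 4 was simulated. A gene that did not pass may thus still have changed, and these shares set no bound on the size. The named genes were all members, called genes and the 2 of smallest p of each list, and the nearest genes by distance; others were named to show a role. Members and lists were chosen with earlier results of these data known. No source used here gives the print blocks. The sequence of spots was cut into 16, 32 or 48 equal blocks, which are assumed. The 48 blocks were kept because they took up most of the spread in the loess ratios (mean adjusted R2 of 0.158, against 0.0896 and 0.117). The planned promoter motif search was not run, since no sequences were used here. The number of arrays limits the precision. Python 3.11.15 with numpy 2.4.6, pandas 2.3.3 and matplotlib 3.10.9 served for tables and figures.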

Additional observations from a re-analysis of the deposited data

How the results depend on the processing

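The estimated duplicate spread in the signal recovery was chosen after seeing what fixed values gave. The fixed spread, kept as an alternative, changed no direction or call among the 10 genes (CUP1-1 0.83, RSC30 1.05). With it YHR054C had -0.61 and came closer to a call (limma, adjusted p = 0.0535). Loess and 3 arrays limit what these ratios show, dim spots may hold background, and bright spots depend on the curve. No paired analysis was possible because the replicate numbers run within 1 group, beyond the pairing of both strains on each array that every ratio already holds. The counts of the 10 genes higher and lower were 3 and 0. They were 1 and 1 with median centring, 0 and 7 on the deposited scale, 1 and 0 with normexp and 2 and 0 with block medians. Higher genes numbered 0 with limma-trend and robust moderation, with the unmoderated statistic and at an adjusted p under 0.01, and from 1 (without replicate 3) to 3 with an array left out. Other copper genes numbered 0 higher and 2 lower, against 1 and 4 with median centring, 24 lower on the deposited scale and 0 lower with the unmoderated statistic. Over all genes 24 were higher and 133 lower, against 237 and 984 with median centring, 1 and 4191 on the deposited scale, 51 and 202 with normexp, 53 and 204 with quantile normalization, 3 and 61 with limma-trend, 0 and 0 with the unmoderated statistic, 10 and 66 at an adjusted p under 0.01, 15 higher with block medians, and from 28 to 55 higher and 142 to 173 lower with an array left out. CUP1-1 and CUP1-2 had 0.17 and 0.16 with median centring, -0.47 and -0.48 on the deposited scale, where both passed as lower, 0.70 and 0.74 with normexp, where neither passed (limma, adjusted p = 0.116 and 0.103), and ranged from 0.59 to 0.98 and from 0.60 to 0.95 with an array left out, not passing without replicate 3 (limma, adjusted p = 0.197 and 0.177). At unchanged means of 0.80 and 0.78 they did not pass with limma-trend (adjusted p = 0.297 and 0.299), with the unmoderated statistic (0.546 and 0.542) or at 0.01; nor did CUP1-1 with its first (0.79) or second spot (0.80), or CUP1-2 with its second (0.79). RSC30 lost its call with block medians (1.08), without centring (0.49), or at an unchanged 1.06 with limma-trend (adjusted p = 0.169), unmoderated (0.548) or at 0.01; without an array it ranged from 0.79 to 1.34. YHR054C passed as lower with median centring (-1.04) and on the deposited scale (-1.68). On the deposited scale CRS5 (-0.80), CUP2 (-0.80), CTR2 (-1.05) and MAC1 (-0.41) passed as lower, and CTR1 (-0.45) and CTR3 (-0.34) turned negative without passing; MAC1 too had turned from above 0. Without an array CTR1 ranged from -0.10 to 0.34 and CTR3 from -0.069 to 0.48, both negative without replicate 1 (-0.10 and -0.069). With median centring limma gave all 10 genes the same SE of 0.167. It also gave them a common SE without replicate 2 (0.241) and without replicate 3 (0.237). The p-values of these settings thus rest on a pooled spread, not on each gene's own. The uncentred scale moves every gene down by its construction; the cause of the other changes was not tested.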
